A study of Mus musculus with 13 samples.

Results

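Rn45s is the gene name under which the authors' peak table lists the 45S ribosomal RNA (rRNA) precursor. Every row of that table whose gene is Rn45s was taken, which gave 12 of the 18284 Argonaute (AGO) peaks with a position, or 0.0656% of the peaks. These 12 peaks held 15799 of the 395152 tags in peaks (4.00%), where a tag is 1 sequenced fragment counted in a peak. No other of the 4652 gene names in the table had as many: the next gene had 5907 tags. The tags came from AGO CLIP, in which RNA crosslinked to AGO by ultraviolet light is immunoprecipitated and sequenced, here with BrdU-based capture of the copied fragments and with high and low molecular weight complexes pooled. The tissue was cortex of wildtype C57BL6 mice aged 7 to 8 weeks. The 3 groups were sham surgery (4 libraries, replicates 1, 2, 3 and 5), the contralateral hemisphere of mice with middle cerebral artery occlusion (MCAO; 4 libraries, replicates 1, 2, 4 and 5) and their ipsilateral hemisphere (5 libraries, replicates 1 to 5). In MCAO mice a suture blocked the artery for 35 min and mice recovered for 3 h before the cortex was dissected, while sham mice had the arteries exposed for the same time without a filament. Each replicate number stands for a separate day of surgery, and the labels do not say how many mice went into a library or whether the 2 hemispheres of a number came from the same mice.

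RNA polymerase I transcribes the rRNA precursor in the nucleolus from many nearly identical tandem gene copies. Processing removes the external and internal transcribed spacers and releases the mature rRNAs, of which 18S is the RNA of the small ribosomal subunit. AGO proteins carry microRNAs (miRNAs) to target RNAs, mostly messenger RNAs in the cytoplasm. By mass, rRNA is the most abundant RNA of the cell.

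The 12 peaks lay on chromosome 17 of mm10 between bases 39842992 and 39848326, each 80 bases long, where the assembly carries a copy of part of the rRNA precursor. All 12 were labelled as intronic in the authors' table, and they made up 13.2% of all intron-labelled tags. In GENCODE release M21 (GRCm38, the assembly of mm10), 5 peaks lay in the rRNA gene CT010467.1 (39846353 to 39848201, 1849 bases), named the 18S interval here. Another 6 lay upstream over the noncoding gene Gm26917 (39843013 to 39846341), which is the side of the 5' external transcribed spacer (5'ETS) in the precursor, with the first of them beginning before the gene. The last lay 3' of the 18S interval. Peaks in the 18S interval are named here by the position of their first base in it, so that 18S-1136 starts at base 1136 of the interval. The annotation puts the rRNA gene on the minus strand. Small nucleolar RNAs, many of which guide rRNA modification by base pairing, were searched together with Cajal body RNAs. Of these 1558 RNAs, 13 held a run of at least 14 bases complementary to the plus strand of the interval. Among them were Snord13, Snord14a, Snord45b and Snord57. For the minus strand, 1 held such a run. Sequences are therefore given from the plus strand.

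The 5 peaks in the 18S interval carried 97.6% of the Rn45s tags and are shown because all later results turn on them, together with the most covered peak of the 5'ETS. Each is the plus strand of mm10, 5' to 3', read from GENCODE transcript sequence of that assembly, and the capitals mark the only seed match found (for miR-9-5p):
18S-271, chr17:39846623-39846702: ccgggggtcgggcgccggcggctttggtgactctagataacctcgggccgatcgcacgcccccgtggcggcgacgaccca
18S-510, chr17:39846862-39846941: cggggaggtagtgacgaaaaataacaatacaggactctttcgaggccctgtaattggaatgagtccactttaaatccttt
18S-662, chr17:39847014-39847093: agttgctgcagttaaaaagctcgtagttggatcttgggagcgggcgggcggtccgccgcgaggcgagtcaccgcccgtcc
18S-819, chr17:39847171-39847250: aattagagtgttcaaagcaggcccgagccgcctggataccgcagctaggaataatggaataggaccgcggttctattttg
18S-1136, chr17:39847488-39847567: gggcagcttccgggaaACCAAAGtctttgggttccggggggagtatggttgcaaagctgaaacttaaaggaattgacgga
ETS-3, chr17:39843476-39843555: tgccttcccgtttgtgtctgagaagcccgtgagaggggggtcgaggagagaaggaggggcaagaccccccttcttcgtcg

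The most covered of the 12 peaks, 18S-1136, had 6809 tags over the 13 libraries, or 43.1% of the Rn45s tags, and was the most covered peak of the whole table. The next were 18S-662 with 2941 tags (18.6%) and 18S-819 with 2923 tags (18.5%). The remaining pair in the interval, 18S-510 and 18S-271, had 1548 (9.80%) and 1202 tags (7.61%). All 5 were among the 19 peaks of the table with at least 1000 tags, against a median of 11 tags per peak. Together they covered 400 of the 1849 bases of the 18S interval (21.6%) and held 15423 tags. The table counts tags in called peaks only, so tags elsewhere on the 18S rRNA were not measured here.

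**Figure D1:**
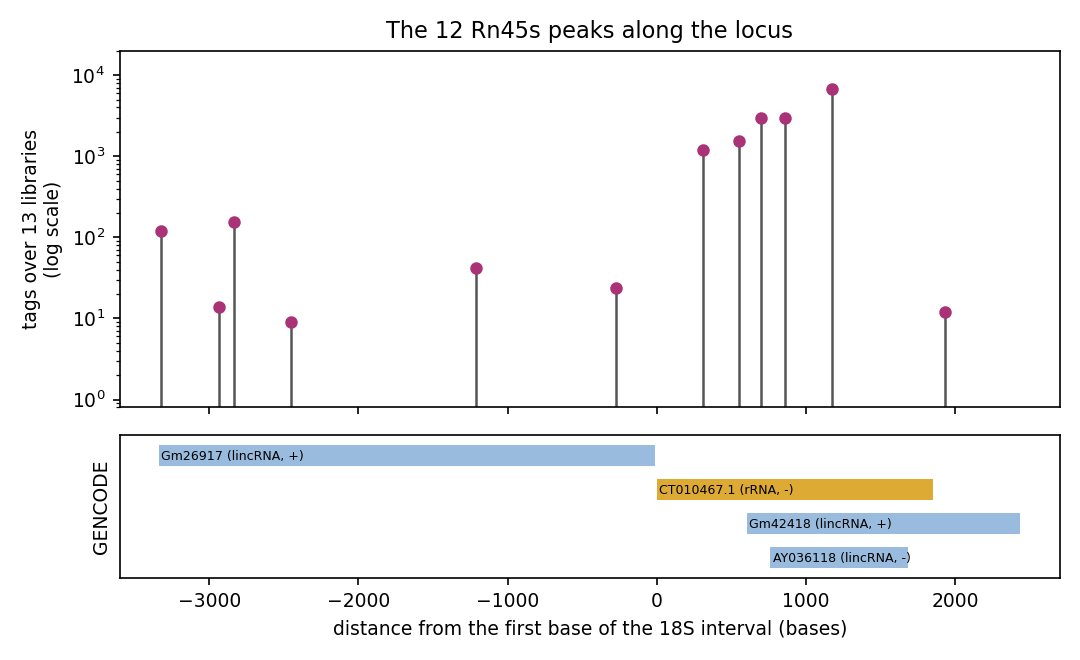
Tags over 13 libraries (log axis) of each of the 12 Rn45s peaks, placed by the distance of the peak centre from the first base of the 18S interval, above the GENCODE genes of the locus. The 5 peaks inside the rRNA gene CT010467.1 have 1202 to 6809 tags and the other 7 have 9 to 156.

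The 6 peaks of the 5'ETS, sequence that is cut away before the ribosome is made, had 364 tags in all (2.30% of the Rn45s tags). ETS-3 had 156 tags and ETS-1, which spans the start of Gm26917, had 119, while the other 4 had 9 to 42. The peak 3' of the 18S interval had 12 tags. Tags of the 5'ETS made up 1.67%, 2.15%, 3.49% and 1.23% of the Rn45s tags in sham replicates 1, 2, 3 and 5. They made up 3.37%, 2.75%, 2.08% and 0.305% in contralateral replicates 1, 2, 4 and 5, and 1.16%, 2.89%, 4.24% and 2.31% in ipsilateral replicates 1 to 4. Ipsilateral replicate 5 had none among 32 Rn45s tags. That allows a share of up to about 9.38%, taken as 3 tags over 32, an approximate limit and not an exact binomial one. The 3 groups overlapped in this share of spacer sequence, and 18S sequence made up most of the Rn45s tags in each library.

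The base composition of the peaks and the presence of miRNA seed sites were compared with those of 9312 peaks of other genes lying in exons. The GC content of the 12 Rn45s peaks ranged from 42.5% to 73.75% with a median of 63.1%, against a median of 41.25% in the other peaks. In the 18S interval it ran from 42.5% in 18S-510 to 73.75% in 18S-271, and 54.7% of the other peaks were below the lowest of these. A search was made on the plus strand for sites of 10 miRNA families, which were let-7a, miR-9, miR-26a, miR-29a, miR-30a, miR-16, miR-137, miR-128, miR-181a and miR-125b. A site was the reverse complement of miRNA bases 2 to 8, or of bases 2 to 7 followed by A. Of the 12 Rn45s peaks, 1 held a site of any of the 10 families, with 59 of the 80 bases of ETS-1 searched and miR-124 not searched, against 1778 of the 9312 other peaks (19.1%). That site, ACCAAAG in 18S-1136, matches bases 2 to 8 of miR-9-5p, a miRNA abundant in the brain, whose other site form searched was CCAAAGA. Sites of this miRNA were in 3.80% of the other peaks. The RefSeq sequence of the mature miRNA, with its seed in capitals, is as follows:
miR-9-5p: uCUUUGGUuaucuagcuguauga

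The share of a library's peak tags that fell on Rn45s was lower on average in the ipsilateral hemisphere than in either other group, and the groups overlapped. Sham replicates 1, 2, 3 and 5 had Rn45s shares of 4.97% (3533 of 71027 tags), 4.07% (929 of 22818), 2.08% (372 of 17918) and 4.57% (1216 of 26584). Contralateral replicates 1, 2, 4 and 5 had 5.73% (3768 of 65781), 4.76% (1201 of 25249), 3.64% (289 of 7950) and 2.78% (328 of 11798). Ipsilateral replicates 1 to 5 had 3.48% (2232 of 64216), 2.98% (1038 of 34820), 2.02% (731 of 36106), 1.83% (130 of 7105) and 0.847% (32 of 3780). The exact 95% binomial interval of the lowest of these shares was 0.580% to 1.19%, and that of ipsilateral replicate 4 was 1.53% to 2.17%. Such intervals cover counting error only. In order of level, the 6 highest libraries were sham or contralateral and the 3 lowest were ipsilateral, with sham replicate 3 (2.08%) next above them. That library and contralateral replicate 5 lay below ipsilateral replicates 1 and 2.

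**Figure D2:**
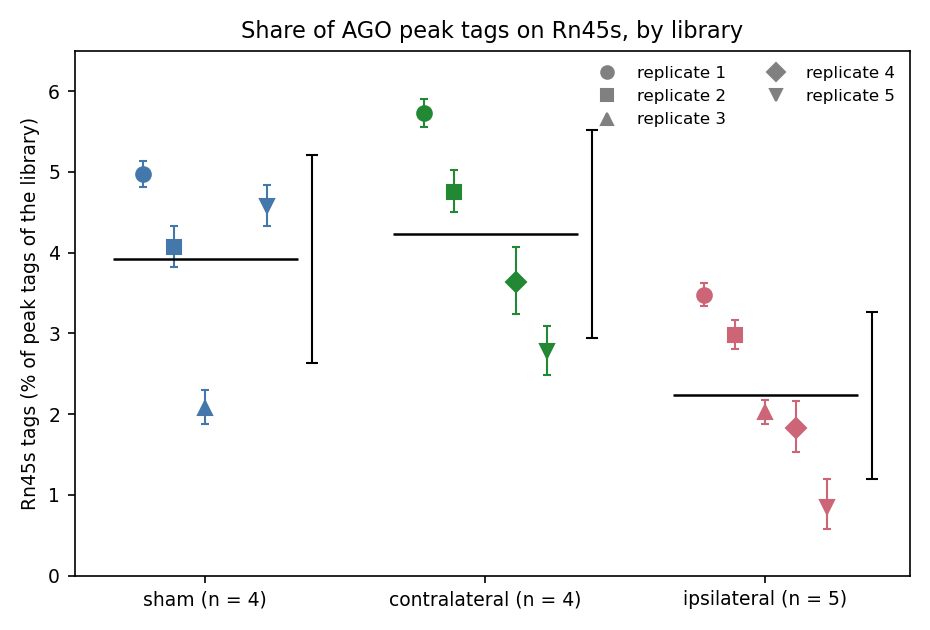
Rn45s share of all peak tags (percent, from 0) in each of the 13 libraries by group, where the symbol gives the replicate, the bar on each point its exact 95% binomial interval, the line the group mean and the black bar beside it the SD. Ipsilateral libraries lie between 0.847% and 3.48%, sham between 2.08% and 4.97% and contralateral between 2.78% and 5.73%.

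The mean Rn45s share was 3.92% ± 1.29 in sham (SD, n = 4), 4.23% ± 1.29 in contralateral (n = 4) and 2.23% ± 1.03 in ipsilateral cortex (n = 5). Ipsilateral minus sham was -1.69 percentage points, a ratio of 0.569, and did not pass a two-sided exact permutation test over libraries (p = 0.0635, adjusted over the 3 comparisons 0.0952). Ipsilateral minus contralateral was -1.99 points, a ratio of 0.528 (exact permutation p = 0.0476, adjusted 0.0952), which missed the threshold of 0.05 after adjustment. The smallest p these group sizes allow was 0.00794. Contralateral and sham differed by 0.301 points, less than the spread within either group (exact permutation p = 0.771). All 3 comparisons share groups, so they are not independent of each other. Each permutation p is the fraction of relabelings of these libraries with a mean difference at least as large. The relabeling did not take the shared day of surgery into account. In bulk cortex, fewer cells of a type and less RNA per cell cannot be told apart, and rRNA amount and AGO binding cannot be told apart either, since no measure of rRNA level and no library without AGO precipitation was analysed here.

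Since libraries of 1 number come from 1 day of surgery, Rn45s shares were also compared within numbers. Ipsilateral was below sham in 4 of 4 same-number pairs, with ratios of 0.699, 0.732, 0.975 and 0.185 for replicates 1, 2, 3 and 5. It was below contralateral in 4 of 4 pairs, with ratios of 0.607, 0.627, 0.503 and 0.305 for replicates 1, 2, 4 and 5. Contralateral was below sham in 1 of 3 pairs, with ratios of 1.15, 1.17 and 0.608 for replicates 1, 2 and 5. A sign-flip test over 4 pairs cannot go below 0.125, the exact p of both ipsilateral comparisons. The 3 libraries under 10000 peak tags were contralateral replicate 4 and ipsilateral replicates 4 and 5. Without them the ipsilateral difference was -1.10 points against sham (exact permutation p = 0.229) and -1.59 points against contralateral (exact permutation p = 0.3), so the difference from sham depends in size on these shallow libraries.

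The direction against sham was not kept within days when Rn45s tags were set against the miRNA tags of the same library. Per 100 miRNA tags, sham replicates 1, 2, 3 and 5 had 6.32, 2.33, 1.49 and 4.06 Rn45s tags. Contralateral replicates 1, 2, 4 and 5 had 6.11, 3.25, 2.20 and 2.24. Ipsilateral replicates 1 to 5 had 6.42, 2.39, 1.92, 1.17 and 0.831. On this scale ipsilateral replicate 1 was the highest of the 13 libraries and the groups overlapped widely. The difference was -1.01 tags against sham (exact permutation p = 0.484) and -0.902 tags against contralateral (exact permutation p = 0.492). In same-number pairs, however, ipsilateral was above sham in 3 of 4 and below it only in replicate 5. The mean paired difference from sham was -0.660 tags over the 4 pairs and 0.197 tags without replicate 5. Against contralateral, ipsilateral was lower in 3 of 4 pairs. Per 100 tags in exonic peaks of other genes the differences were -3.49 (exact permutation p = 0.262) and -3.16 (exact permutation p = 0.310), with ipsilateral lower in 4 of 4 pairs in both.

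Tags were also summed over the peaks of each gene and tested with edgeR, with all 13 libraries in 1 fit. Of 590 genes tested, 0 passed an adjusted p of 0.05 in any of the 3 comparisons (percent called 0), with 41, 52 and 8 at an unadjusted p under 0.05 for ipsilateral against sham, ipsilateral against contralateral and contralateral against sham. DESeq2 called 1 of 301 genes (0.332%), 7 of 290 (2.41%) and 0 of 587. Rn45s was not among the genes called by either tool. Its log2 fold change was -0.76 (SE 0.59, edgeR adjusted p = 0.835) in ipsilateral against sham and -0.71 (SE 0.59, edgeR adjusted p = 0.738) against contralateral. In contralateral against sham it was -0.05 (SE 0.62, edgeR adjusted p = 0.996). The median log2 fold change over all tested genes was -0.04, 0.12 and -0.08 in the same order, so relative to it Rn45s stood at -0.72, -0.83 and 0.03. Without sham replicate 1 the log2 fold change against sham was -0.33, and without contralateral replicate 1 that against contralateral was -0.29. Without ipsilateral replicate 1 they were -1.45 and -1.41. Without ipsilateral replicate 5, the shallowest library, they were -0.52 and -0.45. The size thus turned most on the libraries of replicate 1, and also on ipsilateral replicate 5. With the surgery day as a block the Rn45s differences had smaller errors, at -0.92 (SE 0.33, edgeR adjusted p = 0.373) and -0.74 (SE 0.33, edgeR adjusted p = 0.461). That blocked fit called 1 of 590 genes (0.169%) in each of the ipsilateral comparisons.

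All 5 peaks of the 18S interval had a lower fitted level in ipsilateral than in sham libraries, and none passed the test. Of all 238 tested peaks, 58.0% were lower in that comparison, and the 5 peaks lie on 1 RNA. Those 5 of the 12 Rn45s peaks passed the filter on low counts of the peak-level edgeR fit, which tested 238 peaks, and 0 of 238 were called in any comparison (percent called 0, with 5, 5 and 1 at an unadjusted p under 0.05). As a description beside that fit, groups were set side by side without a test. Every ipsilateral library was below every sham library in 1 of the 238 peaks (0.420%), which was 18S-510, and above every one in 0. Every ipsilateral library was below every contralateral library in 3 of them (1.26%), of which 18S-1136 was 1, and above every one in 1 (0.420%), which was not an Rn45s peak. Between contralateral and sham, 2 of the 238 peaks lay fully lower (0.840%) and 4 fully higher (1.68%), and 0 of these were Rn45s peaks.

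The peak 18S-510 took 0.328%, 0.872%, 0.536% and 0.579% of the peak tags in sham replicates 1, 2, 3 and 5. It took 0.418%, 0.570%, 0.629% and 0.237% in contralateral replicates 1, 2, 4 and 5, and 0.257%, 0.290%, 0.244%, 0.155% and 0.106% in ipsilateral replicates 1 to 5. Its ipsilateral and sham values did not overlap, while contralateral replicate 5 lay among the ipsilateral libraries. The log2 fold change of 18S-510 was -1.61 against sham (SE 0.85, edgeR adjusted p = 0.996) and -1.09 against contralateral (SE 0.85, edgeR adjusted p = 0.981).

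For 18S-1136 the shares were 2.10%, 1.22%, 0.614% and 2.28% in sham replicates 1, 2, 3 and 5 and 3.33%, 1.82%, 1.50% and 1.97% in contralateral replicates 1, 2, 4 and 5. In ipsilateral replicates 1 to 5 they were 1.04%, 1.03%, 0.607%, 0.830% and 0.397%. The ipsilateral and contralateral values of 18S-1136 did not overlap, and sham replicate 3 lay among the ipsilateral libraries. Its log2 fold change was -1.31 against contralateral (SE 0.71, edgeR adjusted p = 0.981) and -1.08 against sham (SE 0.71, edgeR adjusted p = 0.996).

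The peaks 18S-271 and 18S-819 overlapped between all groups. The GC-rich 18S-271 ranged from 0.212% to 0.700% of peak tags in sham, 0.0932% to 0.444% in contralateral and 0.0265% to 0.419% in ipsilateral libraries. Over the same groups 18S-819 ranged from 0.430% to 1.03%, 0.407% to 1.59% and 0.238% to 0.953%. In same-number pairs, 18S-271, 18S-510 and 18S-1136 were lower in ipsilateral than in sham in 4 of 4 and lower than in contralateral in 4 of 4, and 18S-819 in 3 of 4 and 4 of 4. The peak 18S-662 was lower in 2 of 4 pairs against sham and 1 of 4 against contralateral. How many of all tested peaks were lower in 4 of 4 pairs was not counted. These Rn45s peaks lie on 1 RNA and share libraries, so their pair counts are not independent of each other. Of all tested peaks, the median log2 fold change was -0.11 against sham and 0.35 against contralateral, and 18S-662 stood at -0.27 (SE 0.92) and 0.42 (SE 0.93). Its direction turned on replicate 1: without ipsilateral replicate 1 it stood at -1.73 and -1.03, and without sham replicate 1 at 0.81 against sham. Whether peaks differed from each other in response was not tested.

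**Figure D3:**
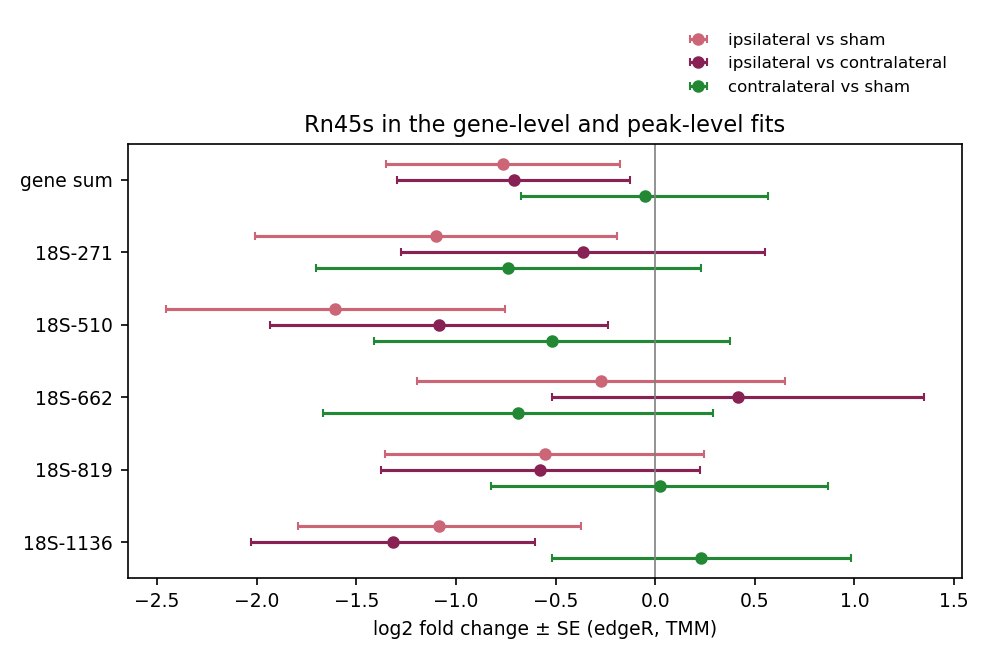
Log2 fold changes with SE bars of Rn45s as a whole (gene-level edgeR fit) and of its 5 tested peaks (peak-level edgeR fit) in the 3 comparisons. For ipsilateral against sham the peaks lie between -1.61 (18S-510) and -0.27 (18S-662), and no value passed the test.

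The peak 18S-662 set the libraries of replicate 1 apart from the rest, whatever the group. It made up 30.4% of the Rn45s tags in sham replicate 1, 13.9% in contralateral replicate 1 and 45.1% in ipsilateral replicate 1, and 1.40% to 10.0% in the other 10 libraries. As a share of all peak tags it took 1.51%, 0.794% and 1.57% in the replicate 1 libraries of sham, contralateral and ipsilateral cortex and 0.0593% to 0.359% in the others. Of its 2941 tags, 2602 (88.5%) came from the 3 libraries of replicate 1. The other 4 peaks of the interval drew 39.6% (18S-271), 43.5% (18S-510), 41.6% (18S-819) and 63.9% (18S-1136) of their tags from replicate 1. Those libraries held 50.9% of all peak tags and 53.9% of the Rn45s tags outside 18S-662. A high share of replicate 1 was not particular to this peak: over the 145 peaks of the table with at least 200 tags the median share from replicate 1 was 80.0%, and 23 peaks were above 18S-662.

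**Figure D4:**
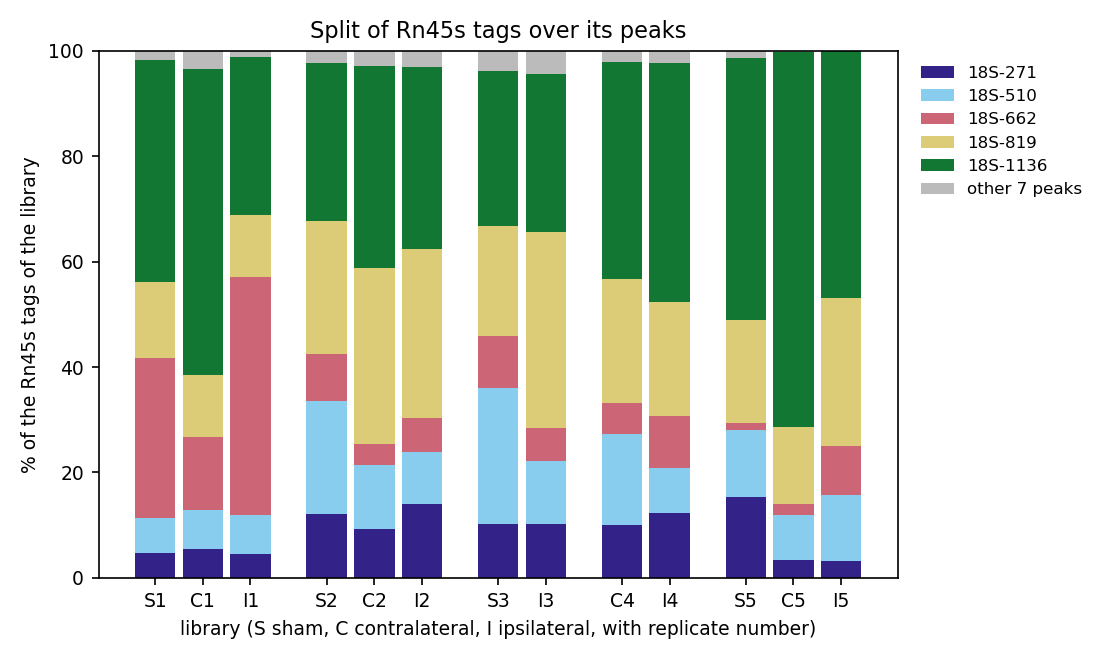
Share of each library's Rn45s tags (percent) taken by each peak of the 18S interval and by the other 7 Rn45s peaks, 1 bar per library, ordered by replicate number. The peak 18S-662 takes 13.9% to 45.1% in the replicate 1 libraries and 1.40% to 10.0% in the others.

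Once 18S-662 was set aside, no other peak of the 18S interval kept replicate 1 apart from all other libraries. Still, 18S-819 and 18S-1136 kept replicate 1 apart from replicates 2 to 4. Of all Rn45s tags, 18S-819 held 11.7% to 14.4% in the replicate 1 libraries and 14.6% to 37.2% in the others. Of the Rn45s tags outside 18S-662 it held 13.7% to 21.4% and 15.0% to 39.7%, which overlapped. That overlap came from replicate 5, since replicates 2 to 4 held 23.0% to 39.7%. For 18S-510 the shares of all Rn45s tags were 6.59% to 7.39% in replicate 1 and 8.46% to 25.8% in the others, and outside 18S-662 they were 8.47% to 13.5% and 8.72% to 28.7%. The peak 18S-271 overlapped on both scales. Of all Rn45s tags 18S-1136 held 46.9% to 71.0% in replicate 5, 29.6% to 45.4% in replicates 2 to 4 and 30.0% to 58.1% in replicate 1, so replicates 1 and 5 overlapped. Outside 18S-662 it held 50.5% to 72.6% in replicate 5, 32.0% to 50.4% in replicates 2 to 4 and 54.6% to 67.5% in replicate 1. On that scale replicates 1 and 5 both lay above replicates 2 to 4. These shares are a description with no test. Without 18S-662 the Rn45s share differed in ipsilateral by -1.59 points from sham (exact permutation p = 0.0635) and by -2.11 points from contralateral (exact permutation p = 0.0238, adjusted 0.0714). Without the libraries of replicate 1 the differences were -1.65 points (exact permutation p = 0.143) and -1.80 points (exact permutation p = 0.0857).

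Over the 10 libraries outside replicate 1, the Rn45s share had no relation with depth that passed the test, by Pearson's r or by rank. Replicate 1 stood apart in depth, and the plan was to use only the other 10 libraries in that case. Values over all 13 libraries are outside that plan. There the share was higher in deeper libraries by Pearson's r but not, after adjustment, by rank. The permutation treated libraries as exchangeable, although libraries of 1 number share a day of surgery. With the log10 of peak tags, Pearson's r over the 13 libraries was 0.678 (permutation p = 0.0119, adjusted over 3 relations 0.0357) and Spearman's rho 0.637 (permutation p = 0.0227, adjusted 0.0681). Without the 2 libraries farthest from the median r was 0.412. Over the 10 libraries outside replicate 1, which holds the 3 deepest, r was 0.538 (permutation p = 0.109, adjusted 0.328) and rho 0.455 (permutation p = 0.191), and without the farthest 2 r was -0.0106. The relation thus rested on the deepest and shallowest libraries. The 2 shallowest were both ipsilateral, and the part of depth in the ipsilateral difference was not tested beyond the values for libraries with at least 10000 peak tags. The other 2 measures showed no relation past the test. With the share of other genes' tags lying outside exons r over the 13 libraries was 0.392 (permutation p = 0.183) and rho 0.434 (permutation p = 0.139), and r without the farthest 2 was 0.339. Outside replicate 1 that r was -0.0706 (permutation p = 0.861). With miRNA tags per peak tag r over the 13 was -0.127 (permutation p = 0.677) and rho -0.132 (permutation p = 0.668), and r without the farthest 2 was -0.250. Outside replicate 1 it was 0.408 (permutation p = 0.239). Replicate 1 libraries lay above the rest in depth and in the share outside exons (53.2% to 65.9% against 20.6% to 49.7%) and below them in miRNA tags per peak tag.

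The genes whose share of peak tags ran most like that of Rn45s over the 13 libraries were taken from 312 genes with at least 200 tags, by Spearman's rho as a description. They were Filip1l (0.758), the neuron navigator gene Nav2 (0.720), Agt, which encodes angiotensinogen and is made by astrocytes (0.641), Rpl7a, a protein of the large ribosomal subunit (0.637), and Cdk8, a kinase of the Mediator complex (0.582). Over all 312 genes rho had a median of -0.0742 and ran from -0.824 to 0.758. The mean share of Filip1l, with 810 tags, was 0.205% in sham, 0.232% in contralateral and 0.144% in ipsilateral libraries. Libraries share depth and day of surgery in these values.

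Other noncoding RNAs gave a second view of RNA outside the usual AGO targets. Of 32 listed, 9 had tags, 3 were tested and 0 were called by edgeR in any comparison. The median log2 fold change of those 3 was -0.78, -0.54 and 0.22 in the order of comparisons above, beside the medians of all genes of -0.04, 0.12 and -0.08. With the surgery day as a block the first of the list's medians was -0.46. Malat1, a nuclear-retained long noncoding RNA with 5077 tags, had -0.32 against sham (SE 0.24, edgeR adjusted p = 0.835) and -0.54 against contralateral (SE 0.24, edgeR adjusted p = 0.534). Meg3, an imprinted noncoding RNA with 2056 tags, had -0.78 (edgeR adjusted p = 0.730) and -1.12 (edgeR adjusted p = 0.516), and Snhg11 with 321 tags had -1.05 and -0.48. The list as a whole took 1.50% to 2.65% of peak tags in sham, 1.79% to 3.78% in contralateral and 1.11% to 2.14% in ipsilateral libraries, with overlap between groups.

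Genes of rRNA synthesis and of the ribosome had few tags in this table. Of 52 listed genes of RNA polymerase I transcription and rRNA processing, 10 had tags, 204 in all, and 0 passed the filter for the test. Most of these tags were on Pes1 (87), which acts in maturation of the large subunit, then on the exosome gene Exosc2 (31) and on Rrn3 (22), the initiation factor of RNA polymerase I. Among ribosomal protein genes 13 had tags, 457 in all, and only Rpl7a was tested. Rpl7a had a log2 fold change of -0.50 against sham (SE 0.52, edgeR adjusted p = 0.924) and -0.42 against contralateral (edgeR adjusted p = 0.908).

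Markers of the tissue were checked once. Of the listed neuron markers 7 of 8 had tags (Tubb3 had 0), and their summed share was 0.987% to 2.28% in sham, 1.41% to 2.34% in contralateral and 0.506% to 2.25% in ipsilateral libraries. Of astrocyte markers 6 of 7 had tags (Gfap had 0), with 0.891% to 2.19%, 1.21% to 3.27% and 0.547% to 2.20%. Of oligodendrocyte markers 4 of 6 had tags (Mag and Mog had 0), with 0.144% to 0.373%, 0.184% to 0.526% and 0.0794% to 0.302%. Microglia, vascular and blood markers had tags for 1 of 5, 1 of 3 and 1 of 4, at up to 0.0156%, 0.0141% and 0.0141% of a library. The lowest ends of the neuron, astrocyte and oligodendrocyte ranges were in the ipsilateral group, but the ranges overlapped between groups. Such ranges do not show whether the libraries low in markers were those low in Rn45s. The part of cell composition in the Rn45s difference was not tested.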

How the data were processed

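Both tables the authors deposited hold counts, whole numbers of tags per AGO peak and per mature miRNA in 13 libraries, not normalized. The build mm10 and the aligner Novoalign are named per the submitters' processing notes; the peak caller, the handling of multiply mapping reads and the collapsing of duplicates are not stated in them (not given in the sources used here). If duplicates were kept, tags are not independent molecules. Whether tags from other rRNA gene copies were placed at this locus was not examined. The 1 peak without a position (44 tags) was left out. The Rn45s share is Rn45s tags over all peak tags of a library, tested by exact permutation over libraries with scipy 1.17.1 and Benjamini-Hochberg adjustment over 3 comparisons. Gene sums and peaks were tested with edgeR 4.0.16 (quasi-likelihood, TMM, filterByExpr, 13 libraries, adjusted p under 0.05 over 590 genes or 238 peaks; tested features hold 52.6% and 25.4% of tags; the biological coefficient of variation was 0.597 for genes and 0.907 for peaks) and, as an alternative, DESeq2 1.42.0 (R 4.3.3). The scripts were tested on simulated data. The genes named were Rn45s, its peaks, the 5 genes most like it and the 3 members with most tags of each list. Members and lists were chosen with earlier results of these data known. Replicate numbers pair libraries by day of surgery, per the series' design text. Deviations of same-number libraries from their group means had a median correlation of 0.605 over 11 pairs, against -0.137 over 45 pairs of different numbers (313 genes). Same-number pairs ran from -0.174 to 0.903 and the others from -0.786 to 0.662. The pairs within replicate 1 were the highest (0.892 to 0.903). Both pairs of contralateral replicate 2 (-0.174 and -0.167) and the pair of replicate 3 (-0.153) were negative. Strand letters in the deposited peak names matched the strand of the gene for 2525 of 5176 3'UTR peaks (48.8%) and were not used.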

Additional observations from a re-analysis of the deposited data

Results flagged for a closer look

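Over 33 checks of groups of 4 or 5 libraries for a value far from the others, which chance flags in about 1 group in 20, 2 stood out, and both concern the peak 18S-662 in ipsilateral replicate 1. It took 1.57% of that library's peak tags, against 0.0794% to 0.195% in the other 4 ipsilateral libraries. It took 45.1% of that library's Rn45s tags, against 6.29% to 10.0% in the others. The share of all peak tags was also high in replicate 1 of sham (1.51%) and contralateral cortex (0.794%).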

How the results depend on the processing

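The mean Rn45s share stayed lower in ipsilateral cortex under all 16 alternatives run for each of the comparisons with sham and contralateral, and so did the gene-level log2 fold change under all 21 alternatives each; none passed an adjusted p of 0.05. Adjusted p of the share by permutation ran from 0.0714 to 0.738 in both, and that of the gene-level fits by edgeR or DESeq2 from 0.169 to 0.999 against sham and 0.177 to 0.954 against contralateral. Per 100 miRNA tags the negative mean paired difference from sham rested on replicate 5, since ipsilateral was higher in the other 3 of 4 same-number pairs. With 1 library left out the share differences ran from -2.31 to -1.34 points and from -2.48 to -1.49 points. Leaving out 18S-662 and keeping only libraries with at least 10000 peak tags were chosen after seeing the data, as were the same-number pairs per 100 miRNA or exonic tags and the composition outside 18S-662.

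Contralateral against sham changed sign. The share difference was -0.325 per 100 exonic tags, -0.103 per 100 miRNA tags, -0.118 points with the replicate block pairing 3 days, and -0.315 to 0.783 with 1 library left out (negative without sham replicate 3 or contralateral replicate 1). The gene-level value was 0.11 with library totals only, where the median of all genes moved from -0.08 to 0.08 and Rn45s relative to it was 0.03 as before, 0.081 without 18S-662, and -0.45 to 0.37 with 1 library left out. For 18S-819 it was -0.053 without a filter, -0.15 with the replicate block, -0.013 in DESeq2 and -0.54 to 0.39 with 1 library left out; for 18S-1136 it was -0.10 to 0.77. With 1 library left out 18S-662 ran from -1.73 to 0.81 (0.81 without sham replicate 1) in ipsilateral against sham, -1.03 to 1.22 (-1.03 without ipsilateral replicate 1) in ipsilateral against contralateral and -1.56 to 0.33 in contralateral against sham. The cause was not tested. The block changed no other direction of a tested Rn45s value and no call. Over all genes, calls in the ipsilateral comparisons were 0 and 0 in the edgeR fit, 1 and 7 in DESeq2, 1 and 1 with the block, 1 and 0 without a filter, and 2 and 5 without replicate 1. Depth limits single peaks: 7 of 12 Rn45s peaks had too few tags to be tested.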
